A study of Mus musculus with 16 samples.

Results

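The genes described here are Mcm2, Mcm3, Mcm4, Mcm5, Mcm6, Mcm7, Mcm8, Mcm10, Ticrr and Cdt1, which build, load or start the helicase that unwinds DNA for replication, or are named for their likeness to it. They were chosen by name, are 10 of the 13474 genes in the deposited table, and all 10 passed the filter on low values. The 16 cultures, each profiled by RNA sequencing, came from 5 mouse lines of T-ALL, acute lymphoblastic leukaemia of T cells. Line 7298 carries the SCL/LMO1 transgene and was profiled as a cytarabine-resistant derivative and as the parental culture. Lines 2883, 2696, 2641 and 2869 have the genotype Mcm2cre/cre, which the series text calls a hypomorph of Mcm2; they were profiled as 10 resistant derivatives and 4 parental cultures. Their derivatives were resistant to cytarabine (2883 and 2869), vincristine (2883, 2696 and 2869), etoposide (2883 and 2696), prednisone (2883 and 2641) or methotrexate (2883). All cultures were labelled as thymus-derived and grown in DMEM with 10% serum; the parental cultures carry the treatment label PBS, and the growth protocol calls the cells Mcm2hypo in every record, that of 7298 included, although the genotype label of 7298 names no Mcm2 allele. Each culture is 1 library and each line stands alone, so genotype and line cannot be told apart for 7298, and p-values measure the spread between cultures.

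Mcm2 to Mcm7 form a ring of 6 subunits that is loaded onto replication origins in pairs before S phase. Cdt1 brings the ring to origins and is destroyed or inhibited once S phase begins, so that no origin is loaded again. Ticrr, also called treslin, helps recruit Cdc45 to the loaded ring, and Mcm10 is needed for the assembled helicase to start unwinding. Mcm8 is a related helicase that works with Mcm9 in homologous recombination and not in the replicative ring. Transcription of many of these genes is driven by E2F factors in late G1. Lowered Mcm2 in mice leaves fewer spare origins and is known for giving rise to T-cell lymphomas and leukaemias.

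Promoter windows of 250 bases before to 50 bases after the start were found in the RefSeq table (build GRCm38.p6) for 9 of the 10 genes, Mcm4 being the one with no entry; Mcm7 had a pair of windows, so there were 10 in all. They were searched on both strands for 4 E2F words, TTTGGCGC, TTTCCCGC, TTTGCCGC and TTTCGCGC. At least 1 of these words stood in 6 of the 10 windows (1 each of Mcm3, Mcm5, Mcm6, Mcm7, Mcm8 and Cdt1), against 2.26% of 32851 windows of the same length. The windows of Mcm2, Mcm10 and Ticrr and the other window of Mcm7 held none of the 4. The word TTTGAA of the CHR element, bound by the DREAM complex, stood in 1 of the 10 windows, that of Mcm2, against 17.9% of all; CCAAT stood in 9 of 10 against 37.4%, and the GC box GGGCGG in 9 of 10 against 35.7%. The windows of 4 genes are shown: Mcm2, the gene of the allele (chr6:88898731-88899030, minus strand); Mcm6, which held the most E2F words (chr1:128359656-128359955, minus strand); Ticrr, whose level was higher in most derivatives (chr7:79659946-79660245, plus strand); and Cdt1, the gene with the lowest derivative-to-parental ratio (chr8:122567765-122568064, plus strand). Capitals mark the E2F words, of which the first pair in Mcm6 overlap each other.
Mcm2: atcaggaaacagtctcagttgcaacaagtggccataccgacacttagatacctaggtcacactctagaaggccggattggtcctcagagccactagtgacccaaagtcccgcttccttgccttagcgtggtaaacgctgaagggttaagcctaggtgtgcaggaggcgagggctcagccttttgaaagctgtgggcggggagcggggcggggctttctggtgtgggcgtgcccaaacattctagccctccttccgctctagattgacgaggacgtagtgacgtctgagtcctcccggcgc
Mcm6: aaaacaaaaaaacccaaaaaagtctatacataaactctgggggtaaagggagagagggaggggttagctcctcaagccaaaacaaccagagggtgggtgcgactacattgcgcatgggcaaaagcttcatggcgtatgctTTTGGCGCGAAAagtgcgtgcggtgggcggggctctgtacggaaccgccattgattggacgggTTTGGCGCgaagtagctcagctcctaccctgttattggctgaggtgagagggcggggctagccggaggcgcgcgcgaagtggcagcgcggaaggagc
Ticrr: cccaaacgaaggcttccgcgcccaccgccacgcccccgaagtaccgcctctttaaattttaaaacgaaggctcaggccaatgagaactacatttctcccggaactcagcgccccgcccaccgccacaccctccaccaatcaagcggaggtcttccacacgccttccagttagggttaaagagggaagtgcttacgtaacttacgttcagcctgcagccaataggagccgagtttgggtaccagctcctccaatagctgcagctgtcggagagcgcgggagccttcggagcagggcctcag
Cdt1: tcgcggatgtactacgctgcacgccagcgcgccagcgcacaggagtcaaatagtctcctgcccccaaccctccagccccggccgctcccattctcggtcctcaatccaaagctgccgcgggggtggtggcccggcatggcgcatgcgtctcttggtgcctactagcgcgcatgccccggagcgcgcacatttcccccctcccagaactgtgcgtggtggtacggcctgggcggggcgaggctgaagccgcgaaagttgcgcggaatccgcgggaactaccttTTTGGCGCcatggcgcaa

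The first comparison, line 7298 against the Mcm2cre/cre lines, asks how the allele and its partners are expressed. Mcm2 (chromosome 6, 88883474 to 88898781, minus strand; deposited coordinates are on mm10) was higher in 7298 than in every Mcm2cre/cre library. It measured 29.2 FPKM in the cytarabine-resistant and 20.9 FPKM in the parental library of 7298. In the 10 resistant Mcm2cre/cre libraries it ranged between 3.53 and 12.2 FPKM with a median of 6.32 FPKM, and the 4 parental Mcm2cre/cre libraries had 6.32 FPKM (2883), 4.98 FPKM (2696), 5.38 FPKM (2641) and 7.46 FPKM (2869). The 7298 and Mcm2cre/cre libraries did not overlap, and in each state line 2869 was the highest of the Mcm2cre/cre lines. The parental library of 7298 stood 3.47-fold above the mean of the 4 parental Mcm2cre/cre libraries, 6.04 ± 1.10 FPKM (SD, n = 4). FPKM here is depth-scaled reads per kilobase of the whole gene span, introns included, so it compares libraries and not genes.

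**Figure D1:**
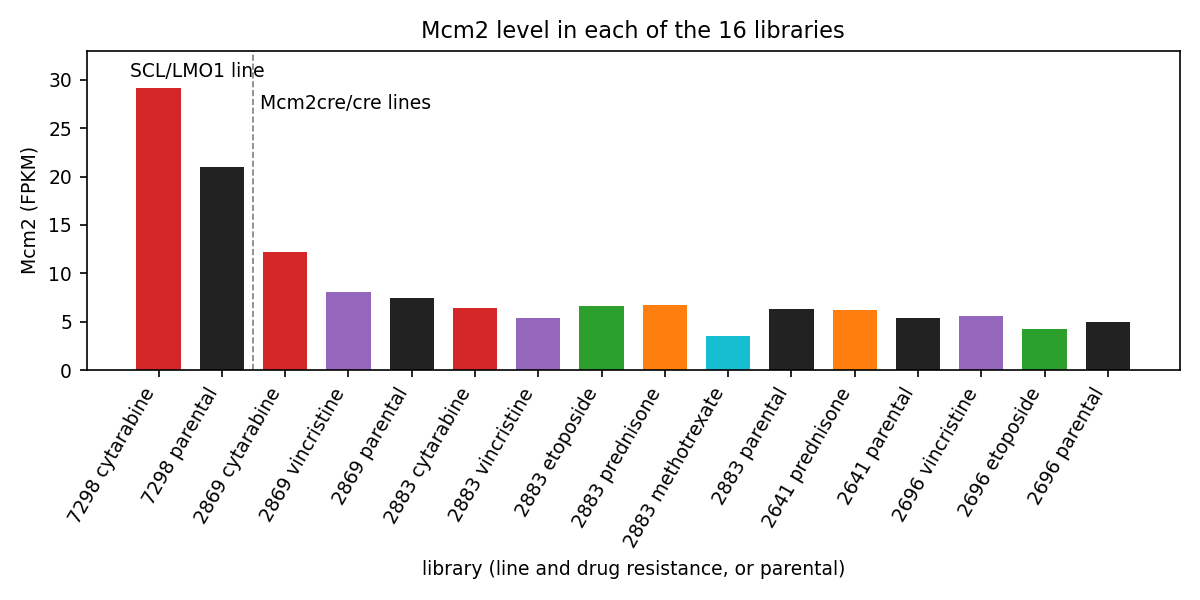
Mcm2 level (FPKM, vertical axis, from 0) in each of the 16 libraries, ordered by line with each derivative left of its parental culture (black bars). Both libraries of 7298, at 29.2 and 20.9 FPKM, stand above all 14 Mcm2cre/cre libraries, and the cytarabine-resistant derivative of 2869 is the highest of those at 12.2 FPKM.

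In order of level, the 7298 derivative, the 7298 parental culture and the cytarabine-resistant derivative of 2869 (12.2 FPKM) led, each apart from the next by more than the SD of 1.10 FPKM between parental Mcm2cre/cre libraries. The other 13 libraries followed from the vincristine-resistant derivative of 2869 (8.12 FPKM) in steps smaller than that SD, ending with the methotrexate-resistant derivative of 2883 at 3.53 FPKM. With limma over the 5 parental libraries, the difference of Mcm2 was 1.65 ± 0.25 on the log2(FPKM + 1) scale (SE; adjusted p = 0.176 over 9309 genes). Mcm2 thus did not pass the threshold of 0.05 with 1 library of 7298 against 4. A fit to all 16 libraries with the line as a random effect gave 1.68 and an adjusted p = 0.0106. That call was lost when each line was reduced to the mean of its libraries (1.83, adjusted p = 0.206), and 7298 remains 1 line in each of these fits.

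None of the 10 genes was called in this comparison, where 24 genes (0.258% of those tested) were. At an unadjusted p under 0.05 there were 2 of the 10, Mcm2 and Mcm4, against 561 genes (6.03%). The parental library of 7298 lay outside the range of the 4 parental Mcm2cre/cre libraries for 4 of the 10 genes, against 38.4% of all tested genes. Both libraries of 7298 lay outside the range of all 14 for Mcm2, above it, and for Mcm8, below it, against 6.95% of all tested genes. For Mcm8 the gap was small, with 0.710 FPKM in the parental library of 7298 and 0.720 FPKM in the etoposide-resistant derivative of 2696.

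Mcm4, a subunit of the catalytic core (chromosome 16, 15623897 to 15637401), had the most negative difference of the 10 genes. It measured 10.8 FPKM in the parental library of 7298, against 28.2 FPKM (2883), 15.8 FPKM (2696), 18.2 FPKM (2641) and 22.1 FPKM (2869) in the parental Mcm2cre/cre libraries. The 7298 library was below all 4, and the limma difference was -0.88 ± 0.34 (SE; adjusted p = 0.815). With the derivatives included it was smaller, at -0.35 on line means (adjusted p = 0.941) and -0.47 with the line as a random effect (adjusted p = 0.998). Mcm8 measured 0.710 FPKM in the parental library of 7298, against 0.975 to 1.43 FPKM in the parental Mcm2cre/cre libraries, a difference of -0.37 ± 0.21 (adjusted p = 0.994). Mcm6 measured 17.6 FPKM in 7298, just under the lowest of the 4 (17.8 FPKM) and under their highest (26.5 FPKM), at -0.29 ± 0.27 (adjusted p = 0.994). The other 6 genes lay inside the range of the 4 Mcm2cre/cre libraries, with differences between -0.47 (Cdt1) and 0.21 (Mcm7). The median over the 10 genes was -0.21, beside -0.04 over all genes tested.

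Because the subunits share a complex, Mcm2 was also set against Mcm3 to Mcm7 in the same library, which takes out differences between libraries that these subunits share. Per length of the main transcript (GENCODE vM21), Mcm2 stood at 0.984 of the geometric mean of Mcm3 to Mcm7 in the cytarabine-resistant and at 1.01 in the parental library of 7298. The ratio lay between 0.149 and 0.439 in the 10 resistant Mcm2cre/cre libraries and between 0.199 and 0.284 in the 4 parental ones. The lowest was the methotrexate-resistant derivative of 2883 and the highest the cytarabine-resistant derivative of 2869, still under 7298. On the log2 FPKM scale the ratio in the parental library of 7298 exceeded the mean of the 4 parental Mcm2cre/cre libraries by 2.06, a 4.16-fold gap, where the SD between the 4 was 0.217. Mcm4 is part of the ratio and widens this gap, being at 0.510 of the mean of the 4 in the parental library of 7298.

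Mcm6 had the highest level per transcript length of the 6 subunits in 16 of 16 libraries. Mcm2 had the lowest in 14 of 14 Mcm2cre/cre libraries, while Mcm4 had the lowest in 2 of 2 libraries of 7298. Among Mcm3 to Mcm7 alone, Mcm4 was also the lowest in most Mcm2cre/cre libraries. The exceptions were both derivatives of 2696 and the vincristine-resistant derivative of 2883. In CPM (depth-scaled reads) per kilobase of transcript, Mcm2 was at 132 and 95.1 in the resistant and parental libraries of 7298, against 16.0 to 55.5 over the Mcm2cre/cre libraries with a median of 28.5. In those libraries of 7298 Mcm4 was at 104 and 40.5, against 59.6 to 114 over the Mcm2cre/cre libraries with a median of 83.7. Over all 16 libraries, Cdt1 had a median of 35.0 on this scale, Mcm10 23.1, Ticrr 10.4 and Mcm8 9.39. The factors that load and start the helicase were therefore at lower RNA levels than the subunits Mcm3 to Mcm7, whose medians were 83.7 (Mcm4) to 197 (Mcm6).

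**Figure D2:**
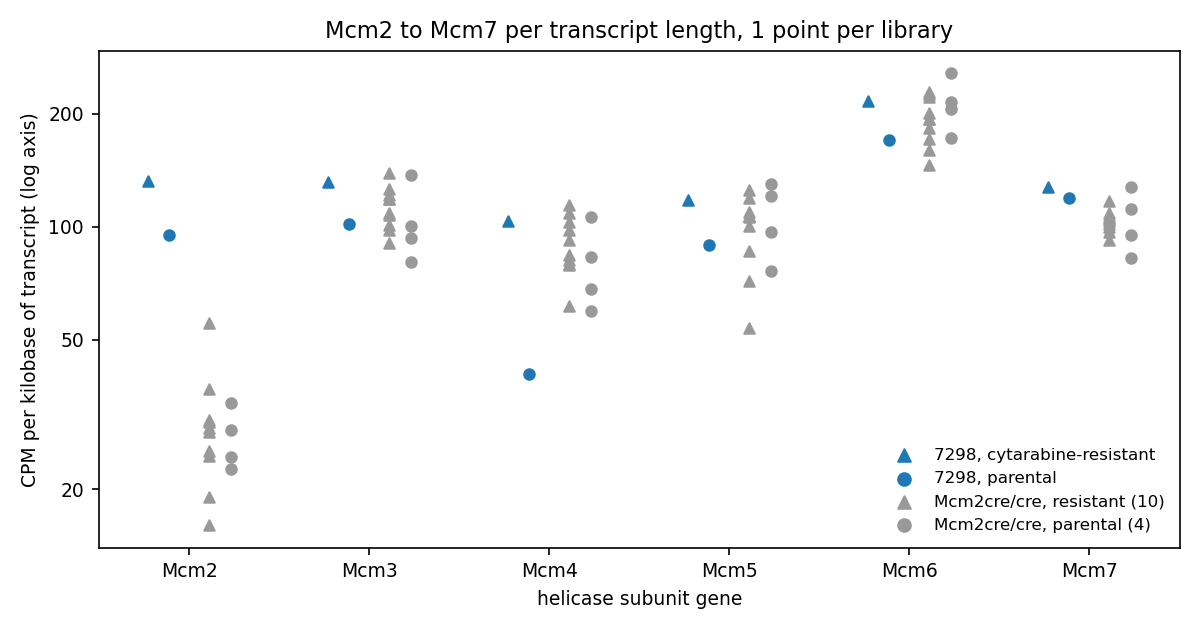
Level of the 6 helicase subunit genes per transcript length (CPM per kilobase, log axis), 1 point per library, with 7298 in blue left of the Mcm2cre/cre lines in grey; triangles are resistant and circles parental libraries. Mcm2 separates the genotypes, at 132 and 95.1 in 7298 against 16.0 to 55.5 in the Mcm2cre/cre lines, and the parental library of 7298 is lowest for Mcm4 at 40.5.

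Genes outside the family were taken from lists of replication genes: 105 listed, 102 in the table and 92 tested. With 7298 against Mcm2cre/cre, 0 of the 92 were called and 3 (3.26%) had an unadjusted p under 0.05, against 6.03% of all tested genes. Chaf1b, a subunit of the histone chaperone CAF-1, was at 6.71 FPKM in the parental library of 7298 against 1.88 to 3.27 FPKM in the parental Mcm2cre/cre libraries (1.13 ± 0.25, adjusted p = 0.379). Rfc4, a subunit of the clamp loader, was at 1.94 FPKM against 4.34 to 6.57 FPKM (-1.16 ± 0.26, adjusted p = 0.380), and Cdc45, which joins the Mcm ring in the active helicase, at 0.777 FPKM against 1.39 to 3.36 FPKM (-0.93 ± 0.35, adjusted p = 0.771). The median difference over the 92 genes was -0.11, with 26 of 92 higher in 7298.

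Those 3 genes and Mcm4 lie on chromosome 16, so the values of other genes around the 10 members were read as well; this was done after their values had been seen, and no test was made. Within 10 Mb of Mcm4, 98 tested genes had a median log2 difference of -0.63 between the parental library of 7298 and the mean of the parental Mcm2cre/cre libraries, with 93.9% of them lower. The bordering genes Prkdc, 465 bases from Mcm4 and on the opposite strand, and Ube2v2 had 0.263 FPKM and 0.887 FPKM in that library, against 0.401 to 0.415 FPKM and 1.69 to 2.45 FPKM in the parental Mcm2cre/cre libraries. The low level of Mcm4 in parental 7298 cells was thus shared with the genes around it. Along chromosome 16 the median was -0.55 in the first 20 Mb (87 genes), -0.11 between 20 and 40 Mb (95 genes) and 0.74 beyond 80 Mb (50 genes), where Chaf1b lies. Around Mcm2, 83 tested genes had a median of -0.05, and its neighbour Tpra1 was at 1.53 FPKM in 7298 against 1.53 to 1.93 FPKM.

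The same reading was made for the 11 derivatives, each against its parental library. Of the 120 pairs of a member and a comparison, 6 had a median over the surrounding 10 Mb on either side of at least 0.3 (log2) in size, and 4 of these were Mcm4. Those 4 are not independent. Both comparisons of 7298 use its parental library, and both derivatives of 2696 are set against the parental library of 2696. In the cytarabine-resistant derivative of 7298 the genes around Mcm4 had a median of 0.60, with 92.9% of them higher, beside 1.28 for Mcm4 itself. All window medians, and the limit of 0.3, are on the log2(FPKM + 1) scale, which shrinks differences of genes at low FPKM. As plain FPKM ratios in that pair, Mcm4 was at 2.56 and the bordering Ube2v2 and Prkdc at 2.17 and 1.63. The 2 derivatives of 2696 had medians around Mcm4 of 0.40 (etoposide) and 0.38 (vincristine), beside 0.60 and 0.90 for Mcm4. The other 2 pairs were Mcm5 and Cdt1, both on chromosome 8, in the vincristine-resistant derivative of 2883. There 447 of the 500 tested genes of chromosome 8 were lower, with a median of -0.45, against a median of 0.0050 for genes of other chromosomes. The part of their surroundings in the values of these members was not tested.

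**Figure D3:**
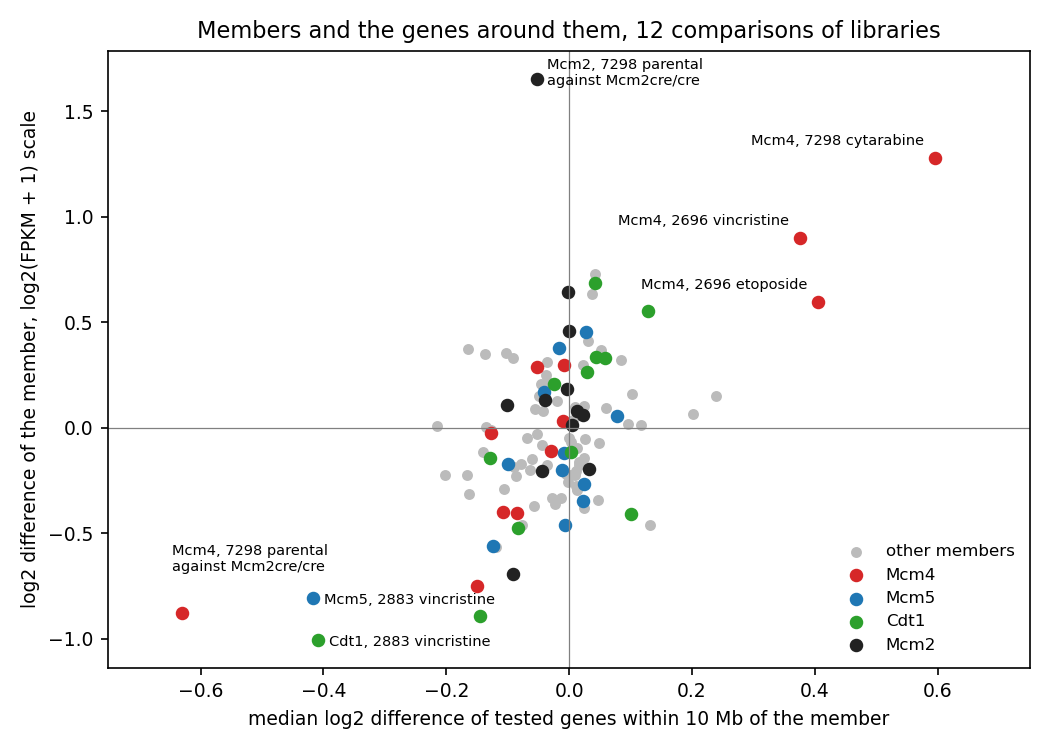
Log2 difference of each of the 10 genes (vertical) against the median log2 difference of tested genes within 10 Mb of it (horizontal), for the parental library of 7298 against the parental Mcm2cre/cre libraries and for 11 derivatives against their parental libraries, 120 points in all. Mcm4 in 4 comparisons and Mcm5 and Cdt1 in 1 lie where the surrounding genes moved in the same direction, while Mcm2 in 7298 stands at 1.65 beside a surrounding median of -0.05. The 4 comparisons of Mcm4 share the parental libraries of 7298 and of 2696.

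Cytarabine, a nucleoside analogue that blocks DNA synthesis, was compared in lines 7298, 2869 and 2883. Ticrr (chromosome 7, 79660196 to 79698149) was higher in each of the 3 derivatives. It measured 2.60 FPKM in the derivative and 1.90 FPKM in the parental culture of 7298, 3.27 and 1.58 FPKM in those of 2869, and 3.45 and 1.86 FPKM in those of 2883. The ratios were 1.37 (95% interval 1.26 to 1.48), 2.07 (1.91 to 2.25) and 1.85 (1.71 to 2.0). These intervals are exact (Clopper-Pearson) and cover counting error only. Its limma difference was 0.57 ± 0.12 (SE, 3 derivatives; adjusted p = 0.404), which did not pass the threshold.

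None of the 10 genes was called in this comparison, and neither was any gene of the table (0%); at an unadjusted p under 0.05 there were 3 of the 10 against 1037 genes (11.1%). Mcm4 measured 27.5, 27.3 and 26.0 FPKM in the derivatives of 7298, 2869 and 2883, against 10.8, 22.1 and 28.2 FPKM in their parental cultures, so the derivatives were alike while the parental cultures differed. Its limma difference of 0.64 ± 0.26 (adjusted p = 0.436) came with opposite directions in the lines, higher in 7298 and 2869 and lower in 2883, and it was 0.36 (adjusted p = 0.558) without either library of 7298. Mcm2 measured 29.2, 12.2 and 6.40 FPKM in the same derivatives, against 20.9, 7.46 and 6.32 FPKM in the parental cultures, a difference of 0.36 ± 0.15 (adjusted p = 0.436). That difference was 0.23 (adjusted p = 0.775) without the derivative of 2869 and 0.54 (adjusted p = 0.865) without that of 2883. The ratio of Mcm2 was 1.64 (1.54 to 1.74) in 2869 and 1.01 (0.939 to 1.09) in 2883, both Mcm2cre/cre lines. The remaining 7 genes had differences between -0.05 (Mcm7) and 0.33 (Cdt1).

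**Figure D4:**
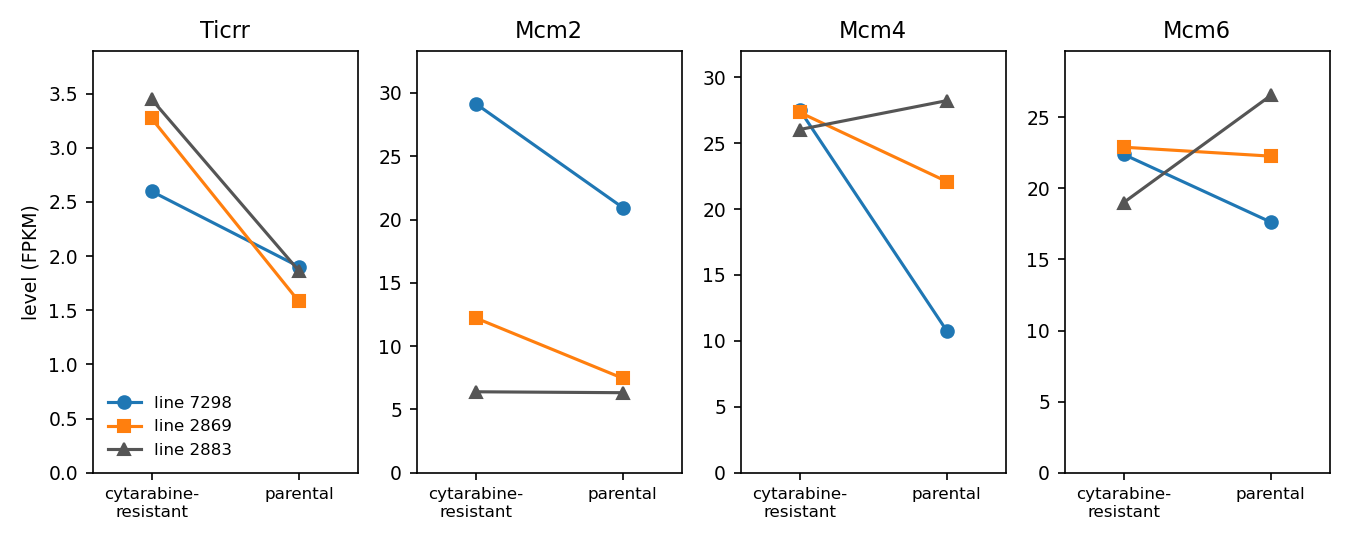
Level (FPKM, axes from 0) of Ticrr, Mcm2, Mcm4 and Mcm6 in the cytarabine-resistant derivative (left) and the parental culture (right) of lines 7298, 2869 and 2883, with a line joining each pair. Ticrr is higher in the derivative in 3 of 3 lines; Mcm4 is at 26.0 to 27.5 FPKM in the derivatives against 10.8 to 28.2 FPKM in the parental cultures.

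By line, the derivative of 7298 had 9 of 10 genes higher than its parental culture and a median ratio of 1.30, beside 0.994 over all tested genes. The derivative of 2869 had 7 of 10 higher with a median ratio of 1.05, and that of 2883 had 8 of 10 lower with a median ratio of 0.846. A 1.5-fold difference was reached by 2 genes in 7298 (Mcm4 and Cdt1; 18.5% of tested genes), by 3 in 2869 (Mcm2, Ticrr and Cdt1; 26.9%) and by 1 in 2883 (Ticrr; 31.3%). Cdt1 was at 15.7 and 9.40 FPKM in the derivative and parental culture of 7298, at 21.7 and 14.5 FPKM in those of 2869, and at 13.2 and 17.8 FPKM in those of 2883. The change in 7298 minus that in the 2 Mcm2cre/cre lines was largest for Mcm4 at 0.91 ± 0.51 (limma adjusted p = 0.893), and it ran from -0.38 (Ticrr) upward. For that difference 0 of the 10 genes and 0 of the 9309 (0%) were called; 0 of the 10 against 479 genes (5.15%) had an unadjusted p under 0.05.

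Of the 92 other replication genes, 0 were called with cytarabine resistance and 10 (10.9%) had an unadjusted p under 0.05, a share near the 11.1% of all tested genes. Each of the 10 was higher, as were 5.92% of all tested genes at that p. They included E2f8, an atypical E2F repressor of the cell cycle (0.84 ± 0.15, adjusted p = 0.404), Recql4, a helicase that takes part in replication initiation (0.49 ± 0.12, adjusted p = 0.404), and Tonsl, a reader of newly made histone H4 (0.43 ± 0.13, adjusted p = 0.404). E2f8 had log2 ratios of 0.60 in 7298, 0.85 in 2869 and 1.15 in 2883. The median over the 92 was 0.07, with 60 of 92 higher, beside 0.02 over all genes. In a culture, more cells in S phase and more RNA per cell cannot be told apart from these values.

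Vincristine, which blocks microtubules, was compared in lines 2883, 2696 and 2869. The family's median ratio was 0.857 in 2883, 1.34 in 2696 and 0.938 in 2869, beside 0.992, 1 and 0.950 over all tested genes. It thus differed in direction between 2883 and 2696, and in 2869 it lay near that of all genes. None of the 10 genes was called and 0 had an unadjusted p under 0.05, where 0% of tested genes were called and 1289 (13.8%) had an unadjusted p under 0.05. The limma differences lay between -0.21 ± 0.25 (Cdt1, adjusted p = 0.739) and 0.47 ± 0.26 (Mcm4, adjusted p = 0.452).

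Cdt1 (chromosome 8, 122568015 to 122573555) measured 8.38 FPKM in the vincristine-resistant derivative of 2883 against 17.8 FPKM in its parental culture. Its ratio of 0.470 (0.427 to 0.517) was the lowest ratio of any of the 10 genes in any of the 11 derivatives. Mcm5, which meets Mcm2 at the gate of the ring (chromosome 8, 75109569 to 75128440), measured 12.8 against 23.2 FPKM in the same pair, a ratio of 0.553 (0.530 to 0.577). These 2 genes reached the 1.5-fold limit there, which 26.1% of tested genes did, and both belong to the chromosome whose genes had the median of -0.45. In 2696, Mcm4 at 30.4 FPKM in the derivative against 15.8 FPKM was the one gene past 1.5-fold (29% of tested genes), and 9 of 10 genes were higher. The parental library of 2696 was the lowest of all parental ones for Mcm2, Mcm3, Mcm5, Mcm7, Mcm10 and Cdt1. In 2869, 0 of the 10 genes reached it (29.7%), and Cdt1 was at 13.0 against 14.5 FPKM.

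Of the 92 other replication genes, 0 were called with vincristine resistance and 10 (10.9%) had an unadjusted p under 0.05, against 13.8% of all tested genes. Dbf4, which activates the kinase Cdc7 that phosphorylates the Mcm ring, stood out in size (3.13 ± 0.63, adjusted p = 0.138). It measured 183 FPKM in the derivative of 2883, 14.5 FPKM in that of 2696 and 67.4 FPKM in that of 2869, against 6.60, 5.27 and 7.89 FPKM in their parental cultures. The etoposide-resistant derivative of 2883 also had 129 FPKM of Dbf4, while that of 2696 had 5.36 FPKM. On chromosome 5, Dbf4 (8396973 to 8422717) lies beside the drug efflux pump genes Abcb1a (8660077 to 8748576) and Abcb1b (8798147 to 8866316). Abcb1a was at 59.2, 2.01 and 44.2 FPKM in the vincristine-resistant derivatives of 2883, 2696 and 2869 and at 42.5 and 3.23 FPKM in the etoposide-resistant ones of 2883 and 2696, against at most 0.181 FPKM in the 5 parental cultures. In the etoposide-resistant derivative of 2696, Abcb1a was thus high while Dbf4 was at a ratio of 1.02 to its parental culture. Among the 10 genes the highest ratio in the vincristine-resistant derivatives was 1.10 in 2883 (Ticrr), 1.92 in 2696 (Mcm4) and 1.09 in 2869 (Ticrr), beside 27.7, 2.74 and 8.55 for Dbf4. Mcm7, also on chromosome 5, was at 39.2, 38.5 and 44.1 FPKM in the vincristine-resistant derivatives of 2883, 2696 and 2869, against 48.2, 31.2 and 42.1 FPKM in their parental cultures. In the pair of 2869 the 591 tested genes of chromosome 5 had a median log2 difference of 0.23, with 72.9% higher. Chromosomes 9, 11 and 15 had medians of 0.22, 0.25 and 0.23 in that pair. The part of this in the value of Mcm7 was not tested.

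Etoposide, a poison of topoisomerase II, was compared in lines 2883 and 2696. Of the 10 genes 0 were called or had an unadjusted p under 0.05, where 0% of tested genes were called and 827 (8.88%) had an unadjusted p under 0.05. The limma differences lay between -0.30 ± 0.28 (Mcm5, adjusted p = 0.751) and 0.38 ± 0.30 (Cdt1, adjusted p = 0.704). In the derivative of 2883, 0 genes reached 1.5-fold (36.1% of tested genes did), and in that of 2696 Mcm4 did (16.9%), at 24.5 FPKM against 15.8 FPKM in the parental culture. Mcm5 was lower in both, at 19.1 and 9.64 FPKM in the derivatives of 2883 and 2696 against 23.2 and 13.7 FPKM in their parental cultures. Cdt1 was higher in both, at 20.7 and 9.71 FPKM against 17.8 and 7.92 FPKM.

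Prednisone, a glucocorticoid, was compared in lines 2883 and 2641. No member was called and 0 had an unadjusted p under 0.05, where 2 genes (0.0215%) were called and 853 (9.16%) had an unadjusted p under 0.05. The limma differences lay between -0.18 ± 0.20 (Mcm6, adjusted p = 0.784) and 0.32 ± 0.30 (Cdt1, adjusted p = 0.751). Mcm4 parted the lines, with 16.4 FPKM in the derivative of 2883 against 28.2 FPKM in its parental culture, and 22.4 against 18.2 FPKM in 2641. It was the one gene past 1.5-fold in 2883 (24.3% of tested genes), and 0 of the 10 reached it in 2641 (20.9%). In the pair of 2883, the genes bordering Mcm4 were also lower in the derivative. Prkdc was at 0.204 against 0.408 FPKM and Ube2v2 at 1.15 against 2.36 FPKM. The median log2 difference over the genes within 10 Mb of Mcm4 was -0.15 there. In the other derivatives of 2883 Ube2v2 was lower as well, also with vincristine, where Mcm4 was at a ratio of 1.02. Prkdc was lower with methotrexate and vincristine. It was higher with cytarabine and etoposide (ratios 1.37 and 1.47), where Mcm4 was lower (0.922 and 0.750).

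The methotrexate-resistant derivative of 2883 was a single culture and was described without a test. Methotrexate blocks the folate cycle and so the supply of thymidylate and purines. Against their parental culture, 9 of the 10 genes were lower, with a median ratio of 0.698, beside 0.923 over all tested genes. Cdt1 had 9.14 FPKM in the derivative against 17.8 FPKM (ratio 0.512, 0.466 to 0.563), and Mcm2 had 3.53 against 6.32 FPKM (0.558, 0.509 to 0.612). Mcm10 had 3.65 against 5.87 FPKM (0.621, 0.576 to 0.670), and Mcm5 had 15.4 against 23.2 FPKM (0.664, 0.638 to 0.692). These 4 genes reached 1.5-fold, as did 24.3% of tested genes. Mcm8, outside the replicative ring, was the exception at 1.07 against 1.06 FPKM (1.01, 0.873 to 1.16). Of the 92 other replication genes 17 were higher and 75 lower, with a median ratio of 0.839.

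**Figure D5:**
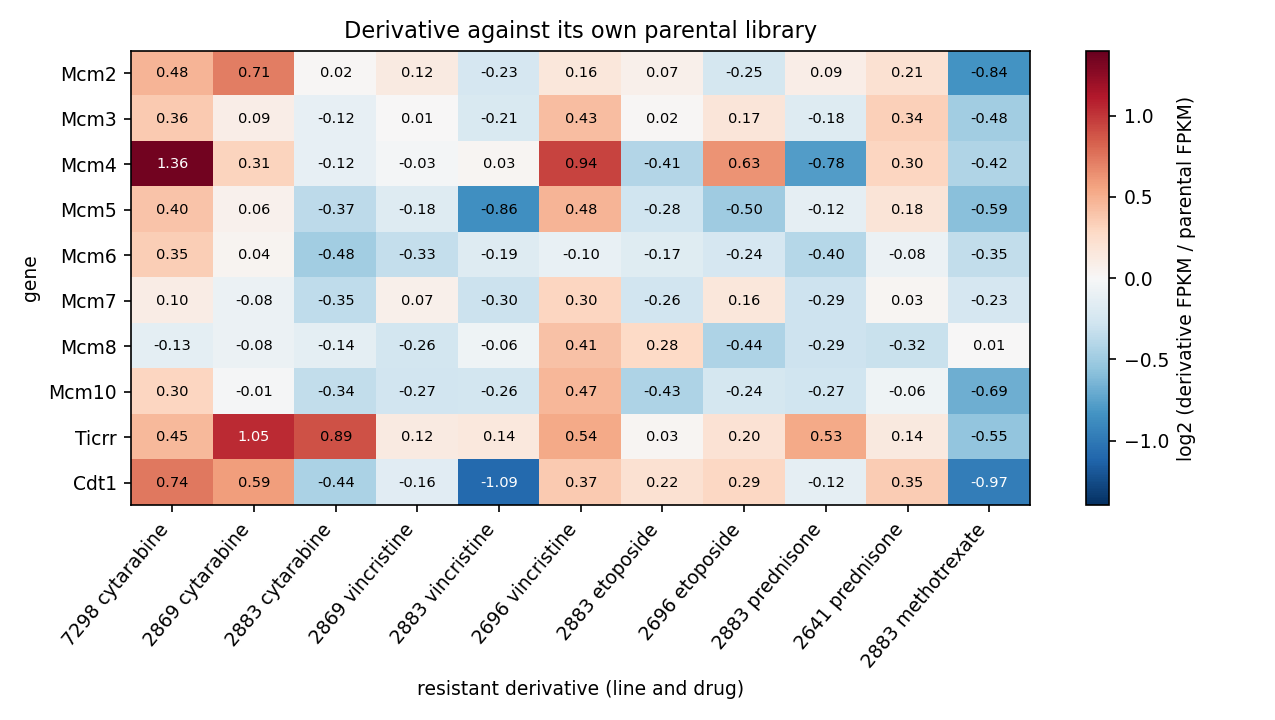
Log2 ratio of the FPKM in each of the 11 resistant derivatives over that in its parental culture (columns, grouped by drug) for the 10 genes (rows); red is higher and blue lower in the derivative. Ticrr is higher in 10 of 11 columns, Mcm6 lower in 9 of 11, and the methotrexate column is lower for 9 of 10 genes. Such counts over all tested genes are not given here.

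Over all drugs, the 11 derivatives were compared with the 5 parental cultures in a fit with a term per line. Again 0 of the 10 genes were called and 0 had an unadjusted p under 0.05, where 0% of tested genes were called and 907 (9.74%) had an unadjusted p under 0.05. The limma differences ran from -0.10 ± 0.11 (Mcm6, adjusted p = 0.759) to 0.35 ± 0.20 (Mcm4, adjusted p = 0.562), and Mcm2 was at 0.13 ± 0.15 (adjusted p = 0.783). Their median was 0.06, beside -0.0042 over all genes. Ticrr was higher in 10 of 11 derivatives, with intervals above 1 in 8, yet averaged 0.24 ± 0.15 (adjusted p = 0.594). Mcm6 and Mcm10 were each lower in 9 of 11, with intervals below 1 in 9 and in 7. The intervals cover counting error only and not the spread between cultures. The share of all tested genes with such counts of direction is not given here, so the counts are a description. The 5 derivatives of 2883 share 1 parental library, which was the highest of the 5 parental ones for Mcm3, Mcm4, Mcm5, Mcm6, Mcm7 and Cdt1, so their ratios are not independent. The same holds for the 2 derivatives of 2696 and the 2 of 2869. The parental library of 2696 was the lowest of the 5 for Mcm2, Mcm3, Mcm5, Mcm7, Mcm10 and Cdt1.

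The members varied to different degrees over the 16 libraries. The highest library was 8.26-fold above the lowest for Mcm2 and 2.83-fold for Mcm4, but 1.55-fold for Mcm7, 1.73-fold for Mcm3 and 1.76-fold for Mcm6. As a description, after each line's mean was subtracted, log2 levels over the 16 libraries correlated most between Mcm2 and Ticrr (Pearson r = 0.80), Mcm2 and Cdt1 (0.78) and Mcm3 and Cdt1 (0.76), and least between Mcm7 and Ticrr (-0.20). Of other genes, Macf1 (r = 0.89), AA465934 (0.88) and Mc4r (0.88) had the profile most like that of Mcm2 over the 16 libraries. Chosen for likeness to Mcm2, these 3 genes were also higher in both libraries of 7298 than in every Mcm2cre/cre library. That follows largely from the choice, and 6.95% of all tested genes lay wholly above or below in this way. Mc4r was at 2.59 and 2.15 FPKM against at most 0.00294 FPKM, so it passed the filter only through the libraries of 7298. With line means removed, Nubp1 (0.86), Ctps (0.85) and Tarbp1 (0.84) were most like the mean of Mcm3 to Mcm7. Libraries of a line share their origin, and all share the batch date given in the labels.

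Depth, as read from the steps between low values, was 14064000 to 18953000 reads in the 11 resistant and 12144000 to 13497000 in the 5 parental libraries, so depth and resistance cannot be told apart. The 10 genes had 251 or more reads in every library, so counting error was small beside the spread between lines. Of 19 T-lineage markers, 13 were at 1 FPKM or more in all 16 libraries, and their summed level was 490 to 495 FPKM in 7298 and 583 to 867 FPKM in the Mcm2cre/cre lines. Of the markers of other cells in the table, Cd79b (B lineage) reached at most 3.86 FPKM, Itgam (myeloid) 0.593 FPKM and Pecam1 (endothelium) 2.29 FPKM, and no erythroid marker was in the table. Their part in the differences was not tested. Mcm7 overlaps Cops6 by 64 bases and Ap4m1 by 421, and Ticrr overlaps Kif7 by 51, on opposite strands; the strand setting used in counting is not given in the sources used here.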

How the data were processed

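The library kit was Illumina Stranded mRNA Prep, per the labels. Per the submitters' processing notes, cutadapt, STAR and Partek were used with mm10; the sources used here give neither versions nor annotation. The authors deposited FPKM values for 13474 genes; the deposited length is the whole gene span, and a constant of 0.1 read per gene had been added. CPM was FPKM times length; reads followed from depth, with 70.7% to 75.8% of values from 0.5 to 200 reads within 0.05 of a whole read, too few for a count test.

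The limma 3.58.1 test in R 4.3.3 (eBayes with trend) was run on log2(FPKM + 1), which understates low genes, for the 9309 genes that reached 1 FPKM in 2 or more libraries, with two-sided Benjamini-Hochberg adjusted p-values and a threshold of 0.05. The 7298 comparison used the 5 parental libraries; drug fits used all 16 with terms for line and drug. The labels name the same line for a derivative and its parental culture, and log2 values correlated best with the own parental library in 11 of 11 derivatives (r 0.942 to 0.981). Ratio intervals are Clopper-Pearson (scipy 1.17.1) on the recovered reads after rounding. They cover counting error only and are no test of a change between cultures. On simulated data with 200 genes changed by 2 on the log2 scale, and no line effects, the directions were recovered. Smaller differences were not simulated. Values of every member are given; other genes follow fixed lists and the rule of likeness. Members and lists were chosen with earlier results of these data known; chromosome and window medians, and Abcb1a and Abcb1b, were chosen after values were seen.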

Additional observations from a re-analysis of the deposited data

Results flagged for a closer look

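Mcm10 in the 4 parental Mcm2cre/cre libraries had 1 library apart from the others: line 2696 at 3.33 FPKM, below 5.87 FPKM (2883), 5.89 FPKM (2641) and 6.15 FPKM (2869). The gap exceeded Dixon's 95% critical value for 4 samples. One flag arose among 11 groups checked, and chance flags about 1 in 20.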

How the results depend on the processing

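Of 487 values under alternatives, 440 kept their direction and their side of the threshold. In each comparison 0 of the 10 genes was called under every alternative run, except that Mcm2 was called (1 of 10) for 7298 against Mcm2cre/cre with the line as a random effect; with 1 mean per line it was not called and 33 genes were. The Mcm2 difference there was 1.58 to 1.83 with adjusted p from 0.0106 to 0.473, and that of Ticrr with cytarabine 0.49 to 0.81 with adjusted p from 0.210 to 0.865. That of Mcm4 was -1.0 to -0.35 for 7298 and 0.36 to 0.85 with cytarabine, and that of Mcm2 with cytarabine 0.23 to 0.71, none of them called. Genes called for 7298 (24) were 72 with the random effect and 61 without the filter, and 15 to 20 with 1 library left out, the 15 without the parental library of 2869. Prednisone (2 called) gave 1 without the filter, 1 on CPM and 0 without the replicate block, and 0 to 4 with 1 library left out, 4 without the cytarabine derivative of 2869 and 0 without either library of 7298, the parental culture of 2696, either etoposide derivative, the prednisone derivative of 2883 or the vincristine derivative of 2869. Vincristine (0 called) gave 3 without the replicate block and 0 to 9 with 1 library left out, 9 without the parental culture of 2696, 3 without the cytarabine derivative of 2883, 2 without either library of 7298 or the parental culture of 2883, and 1 without the vincristine derivative of 2883. Etoposide (0) gave 0 to 5, 5 without the etoposide derivative of 2696 and 3 without that of 2883 or the parental culture of 2696. All drugs together (0) gave 2 in the Mcm2cre/cre lines alone and 0 to 2 with 1 library left out, 2 without either library of 7298. The cytarabine change in 7298 minus that in the others (0) gave 1 with a pseudocount of 0.1, 5 without the filter, 4 on CPM and 1 without the replicate block.

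The small differences of Mcm2 changed sign. Without the replicate block, which pairs a derivative with its line, Mcm2 was at -0.27 for vincristine, -0.48 for etoposide, -0.23 for prednisone and -0.096 for all drugs; it was 0.71 for cytarabine and 1.61 for the cytarabine difference between lines (0.14 with the block; adjusted p = 0.706 without). Quantile normalization gave -0.0023 for vincristine. With 1 library left out it was -0.075 to 0.10 for vincristine, -0.26 to 0.24 for etoposide and -0.14 to 0.40 for the cytarabine difference between lines. Line 7298, with the highest Mcm2, has only a parental and a cytarabine-resistant library. A fit without the block therefore mixes its Mcm2 level into the drug differences. The causes of the other shifts were not tested. With 1 library per culture, 3 residual degrees of freedom for 7298 and depth that separates resistant and parental cultures, shifts of this size rest on few cultures.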
